A study of Mus musculus with 13 samples.

Results

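The genes described here are 10 feedback inhibitors of mitogen-activated protein kinase (MAPK) signalling: the dual-specificity phosphatases Dusp1, Dusp4, Dusp5, Dusp6, Dusp8 and Dusp10, the Sprouty genes Spry1, Spry2 and Spry4, and Spred1. They were chosen by symbol from the 53278 symbols of the count files. All 10 were found, and all 10 passed the filter on low counts, which left 15690 genes. These genes and the gene lists below were chosen with earlier results of these data known. Their counts beside the share of all genes are therefore descriptions. RNA from whole hearts of male wild-type C57Bl6 mice aged 17 weeks was sequenced in 4 groups. IR edit (4 hearts) had ischaemia and reperfusion (IR), in which flow through a coronary artery is stopped for a time and then restored, at 12 weeks of age together with an injection of a working system for editing CaMKIIδ, the product of Camk2d and a calcium-activated kinase of cardiomyocytes. IR virus (3 hearts) had IR and an injected control virus at that age, IR (3 hearts) had IR and no injection, and Sham (3 hearts) had sham surgery and no injection. The labels give neither the kind or dose of virus nor the day or hour of harvest, and they name no animal per library, so the p-values measure the spread between these libraries.

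MAPK cascades carry signals from growth factor receptors and from cell stress to the kinases ERK, JNK and p38. Many of their inhibitors are themselves induced by the cascade they restrain. The DUSP proteins described here remove the activating phosphates from ERK, JNK or p38 in the nucleus or the cytoplasm. Sprouty and Spred proteins act upstream, between the receptors, RAS and RAF. In heart muscle these cascades take part in growth, survival and the response to injury, and transcript levels of the inhibitors are often read as a trace of recent MAPK activity.

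Total counts per library ran from 20634820 to 27265276, and the 10 genes had between 25 and 1504 reads in each heart. Levels are CPM, counts scaled to a common library total, after TMM scaling, and log2 fold changes carry their standard error (SE). Cardiomyocyte markers, 10 genes summed, were at 50586 to 63550 CPM in IR edit hearts, 60470 to 64275 in IR virus hearts, 56687 to 61085 in IR hearts and 59534 to 69775 in Sham hearts. IR edit replicates 2 and 4, at 53105 and 50586 CPM, lay below all 11 other hearts. Camk2d ranged from 210 to 248 CPM in IR edit hearts, from 197 to 233 in IR virus hearts, from 235 to 245 in IR hearts and from 199 to 280 in Sham hearts. Its log2 fold change in IR edit against IR virus was 0.041 ± 0.11 (edgeR adjusted p = 0.896), and gene counts do not show whether it was edited. The 4 IR edit hearts were spread out on the first principal component of all genes tested, which held 27.5% of the variance. Replicates 1 to 4 of IR edit lay at 10.2, 34.0, -2.8 and 45.1, IR virus and IR hearts between -9.17 and 3.83, and Sham hearts between -26.5 and -22.2. In the main fit each gene has a single estimate of spread, shared by all groups. P-values of IR edit comparisons therefore rest in part on groups whose hearts lay closer together on this component. Replicates 2 and 4 of IR edit stand apart from the others, and calls are given with and without both hearts, a choice made after seeing the data. These are also the 2 hearts with the highest Dusp6, Dusp8, Spry1, Spry4 and Spred1 among the IR edit hearts, and the part of the marker levels in those values was not tested. Without them 2 IR edit hearts are left.

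In IR edit hearts, 5 of the 10 genes rose and 1 fell relative to Sham hearts by edgeR's quasi-likelihood test, at an adjusted p under 0.05 over all genes tested. Spry1, Dusp8, Spry4, Dusp6 and Dusp1 rose by 0.44 to 0.80 on the log2 scale, and Spry2 fell. Of all genes tested, 8.01% were called in this comparison, 4.61% higher and 3.4% lower. Relative to IR virus hearts 3 of the 10 genes rose (Dusp1, Dusp8 and Dusp6), against 2.02% of all genes called, 0.962% higher and 1.06% lower. Relative to IR hearts 2 of the 10 rose (Dusp1 and Dusp8), against 1.42% of all genes called, 0.784% higher and 0.637% lower. The median log2 fold change of the 10 genes was 0.53 against Sham, 0.41 against IR virus and 0.39 against IR, and that of all genes tested lay between -0.0077 and -0.0015 in these comparisons. Without IR edit replicates 2 and 4, 0 of the 10 genes were called against Sham, 0 against IR virus and 1 (Dusp1) against IR, in a fit that called 158, 90 and 78 genes in all, against 1257, 317 and 223 with every heart. With 1 library left out, 0 of the 10 were called against IR virus without any 1 IR virus heart (96 to 122 genes in all). The count was 1 without IR edit replicate 2 or 4 or IR replicate 2 (146, 177 and 238 in all) and 6 without IR edit replicate 3 (434). Against IR it was 0 without IR replicate 2 (59 in all), 1 without IR edit replicate 4 or IR replicate 1 (127 and 67) and 6 without IR edit replicate 3 (489). Against Sham it stayed between 4 and 7 (478 to 2351 in all). In whole hearts, more or fewer cells of a type and a changed level per cell cannot be told apart. Circadian clock genes also differed in IR edit hearts (3 higher and 9 lower of 19 against Sham), and their part in these results was not tested. The 3 comparisons share the IR edit hearts and are not independent of each other.

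**Figure D1:**
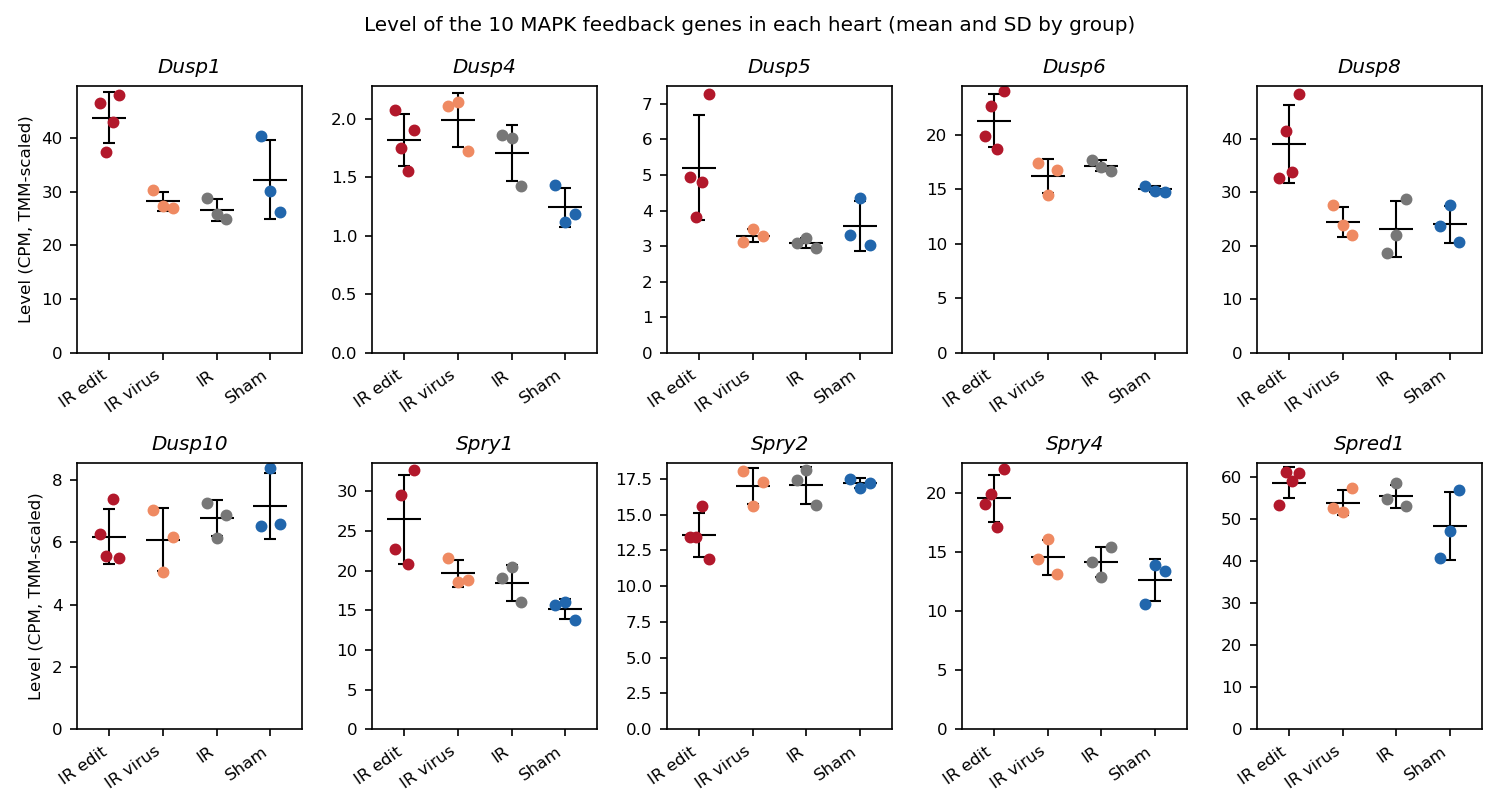
Level of each of the 10 genes in each heart, in CPM after TMM scaling, by group. Each point is a heart, the horizontal line is the group mean and the bar its SD (4 IR edit hearts and 3 in each other group). IR edit hearts of Dusp6, Dusp8 and Spry4 all lie above every other heart, and those of Spry2 lie below every Sham and IR heart.

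Dusp1 encodes a nuclear phosphatase that is induced within minutes of stress or growth factors and acts on p38, JNK and ERK. It lies at chr17:26505590-26562128, minus strand (mm10), and its annotated exons overlap exons of Ergic1 on the other strand, which had 565 to 958 reads per heart. Whether the counting used strand is not given in the sources used here, so reads in the overlap could belong to either gene. Its level was 46.6, 37.4, 43.1 and 48.02 CPM in IR edit hearts, 30.3, 27.4 and 27.02 in IR virus hearts, 28.9, 25.8 and 24.96 in IR hearts and 40.5, 30.1 and 26.2 in Sham hearts. IR edit hearts were above all IR virus and IR hearts, while Sham replicate 1 lay inside the IR edit range. Dusp1 averaged 43.8 ± 4.75 CPM in IR edit (SD, n = 4), 28.2 ± 1.77 in IR virus, 26.6 ± 2.06 in IR and 32.2 ± 7.40 in Sham (n = 3 each). Its log2 fold change was 0.63 ± 0.13 against IR virus (edgeR adjusted p = 0.0189), 0.72 ± 0.13 against IR (adjusted p = 0.0102) and 0.44 ± 0.13 against Sham (adjusted p = 0.0459). In order of mean level the groups were IR edit, Sham, IR virus and IR, and each neighbouring pair in that order overlapped. With 1 library left out, the call against IR virus was lost without any 1 of the 3 IR virus hearts (adjusted p from 0.0628 to 0.0880), the call against IR without IR replicate 2 (0.0708), and the call against Sham without IR edit replicate 1 or 4, Sham replicate 2 or 3, or any 1 of the IR virus and IR hearts (0.0540 to 0.167). The call against Sham was also lost in edgeR on those 2 groups alone (adjusted p = 0.136), and without IR edit replicates 2 and 4 the log2 fold change was 0.67 against IR virus (adjusted p = 0.0530), 0.76 against IR (adjusted p = 0.0286) and 0.47 against Sham (adjusted p = 0.164).

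Dusp4 and Dusp5 encode 2 further inducible nuclear phosphatases, and Dusp5 acts on ERK. Dusp4 lies at chr8:34807297-34819894, plus strand. It had the fewest reads of the 10 genes, 25 to 56 per heart, and stood at 2.08, 1.75, 1.55 and 1.90 CPM in IR edit hearts, 2.11, 2.14 and 1.73 in IR virus hearts, 1.86, 1.83 and 1.43 in IR hearts and 1.43, 1.12 and 1.18 in Sham hearts. Every IR edit heart lay above every Sham heart, and the IR edit, IR virus and IR hearts overlapped each other. Dusp4 was called in none of the 6 comparisons by edgeR: its log2 fold change was 0.55 ± 0.19 in IR edit (edgeR adjusted p = 0.0861), 0.67 ± 0.20 in IR virus (adjusted p = 0.175) and 0.45 ± 0.20 in IR (adjusted p = 0.575) against Sham. Between IR edit and IR virus it was -0.12 ± 0.18. Without IR edit replicate 3 it passed against Sham (adjusted p = 0.0486).

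Dusp5 lies at chr19:53529109-53542431, plus strand. Its level was 4.93, 3.81, 4.81 and 7.28 CPM in IR edit hearts, 3.10, 3.49 and 3.28 in IR virus hearts, 3.07, 3.24 and 2.95 in IR hearts and 3.32, 4.35 and 3.03 in Sham hearts. IR edit hearts were above all IR virus and IR hearts, replicate 4 most of all, and Sham replicate 2 lay inside the IR edit range. The log2 fold change was 0.67 ± 0.19 against IR virus (edgeR adjusted p = 0.0989), 0.76 ± 0.20 against IR (adjusted p = 0.0703) and 0.55 ± 0.19 against Sham (adjusted p = 0.0920). None of these passed in edgeR. DESeq2 called Dusp5 against IR (adjusted p = 0.0233), and without the filter on low counts edgeR called it against IR virus (adjusted p = 0.00447), IR (adjusted p = 0.000873) and Sham (adjusted p = 0.0261). That unfiltered fit called 1018, 1021 and 2205 genes in all, against 317, 223 and 1257 with the filter. The SD of Dusp5 in IR edit, 1.47 CPM on a mean of 5.21, was relatively the widest of the 10 genes in that group. Without IR edit replicate 2 it passed against IR (adjusted p = 0.0393). The annotated antisense gene AC137853.2 overlaps its exons and has no row in the count files.

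Dusp6 encodes the cytoplasmic phosphatase of ERK, whose transcript follows ERK activity in many tissues. It lies at chr10:99263231-99267489, plus strand. Its level was 19.9, 22.6, 18.7 and 24.03 CPM in IR edit hearts, 17.5, 14.4 and 16.8 in IR virus hearts, 17.8, 17.1 and 16.7 in IR hearts and 15.3, 14.9 and 14.8 in Sham hearts. All 4 IR edit hearts lay above all 9 other hearts, the Sham hearts lay within 1 CPM of each other, and IR hearts lay above all Sham hearts while IR virus hearts overlapped both. Dusp6 rose by 0.51 ± 0.096 on the log2 scale against Sham (edgeR adjusted p = 0.00721) and by 0.39 ± 0.095 against IR virus (adjusted p = 0.0452). Against IR its log2 fold change was 0.31 ± 0.095 and did not pass (adjusted p = 0.130). The call against Sham was kept whichever 1 library was left out. That against IR virus was lost without IR edit replicate 2 or 4, Sham replicate 2, or any 1 of the IR virus and IR hearts (adjusted p from 0.0537 to 0.217), and in edgeR on those 2 groups alone (adjusted p = 0.122), and against IR Dusp6 passed without IR edit replicate 3 (0.0441). With IR edit replicates 2 and 4 left out the log2 fold change was 0.37 against Sham (adjusted p = 0.121) and 0.25 against IR virus (adjusted p = 0.377). The replicate number as a block, which takes IR edit replicate 4 out of the comparison, also lost the call against IR virus (edgeR adjusted p = 0.126).

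Dusp8 and Dusp10 encode phosphatases that prefer JNK and p38 to ERK. Dusp8 was called in all 3 IR edit comparisons and Dusp10 in none. In a fit with the replicate number as a block, Dusp8 lost all 3 calls (edgeR adjusted p = 0.0645 against Sham, 0.127 against IR virus and 0.113 against IR). That block takes IR edit replicate 4 out of the comparisons, because no other group has a replicate 4. Dusp8 lies at chr7:142079490-142095843, minus strand. Its level was 32.7, 41.5, 33.7 and 48.3 CPM in IR edit hearts, 27.5, 23.9 and 21.9 in IR virus hearts, 18.6, 21.9 and 28.7 in IR hearts and 23.7, 27.6 and 20.7 in Sham hearts. Its antisense gene Gm32786 had 0 to 3 reads per heart. All 4 IR edit hearts lay above all 9 other hearts, with replicates 2 and 4 the highest, while IR virus, IR and Sham hearts overlapped. Dusp8 rose in IR edit by 0.76 ± 0.16 on the log2 scale against IR (edgeR adjusted p = 0.0290), by 0.68 ± 0.16 against IR virus (adjusted p = 0.0410) and by 0.70 ± 0.16 against Sham (adjusted p = 0.0170). Between IR and Sham the log2 fold change was -0.057 ± 0.17, a direction that turned without IR replicate 1 or Sham replicate 2. With 1 library left out, the call was lost against IR without IR edit replicate 2 or 4 or IR replicate 1 or 2 (adjusted p from 0.0683 to 0.173), against IR virus without IR edit replicate 2 or 4, IR replicate 2 or any 1 of the IR virus hearts (0.0576 to 0.153), and against Sham without IR edit replicate 2 or Sham replicate 1 or 3 (0.0523 to 0.0676). From IR edit replicates 1 and 3 alone the log2 fold change was 0.53 (adjusted p = 0.248), 0.44 (adjusted p = 0.321) and 0.47 (adjusted p = 0.240) in the same order, and edgeR on 2 groups alone gave an adjusted p of 0.0599 against IR and 0.0531 against Sham.

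Dusp10 lies at chr1:184013302-184075636, plus strand. Its level was 6.27, 5.56, 7.40 and 5.50 CPM in IR edit hearts, 7.05, 5.04 and 6.19 in IR virus hearts, 7.27, 6.14 and 6.89 in IR hearts and 6.53, 8.40 and 6.58 in Sham hearts. The 4 groups overlapped throughout. Its log2 fold change was -0.22 ± 0.15 against Sham (edgeR adjusted p = 0.400), -0.13 ± 0.15 against IR (adjusted p = 0.731) and 0.016 ± 0.15 against IR virus (adjusted p = 0.974), the last a direction that turned without IR edit replicate 3 or IR virus replicate 2. Within a heart, the ratio of Dusp8 to Dusp10 read counts does not depend on how libraries are scaled. It was 5.22, 7.47, 4.56 and 8.78 in IR edit hearts, 3.90, 4.74 and 3.54 in IR virus hearts, 2.55, 3.57 and 4.17 in IR hearts and 3.62, 3.29 and 3.14 in Sham hearts. IR edit replicate 3 lay below IR virus replicate 2, and the other 3 IR edit hearts lay above all 9 other hearts. The pair was chosen after the values were seen, so the ratio is a description with no test.

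The stretches before the RefSeq start sites (GRCm38.p6) of Dusp1, Dusp5 and Dusp8 are shown because they hold matches to short motifs that respond to kinase signals, and because Dusp1 and Dusp8 are the members that rose in all 3 IR edit comparisons. Each runs 5′ to 3′ over the 250 bases before the start, with every match to a searched motif on either strand in capitals. The windows are chr17:26508473-26508722, minus strand, chr19:53528895-53529144, plus strand and chr7:142095285-142095534, minus strand. These RefSeq starts differ from the ends of the annotated genes given above. The windows of Dusp1 and Dusp8 lie inside those genes, and that of Dusp5 runs past its annotated start.
Dusp1: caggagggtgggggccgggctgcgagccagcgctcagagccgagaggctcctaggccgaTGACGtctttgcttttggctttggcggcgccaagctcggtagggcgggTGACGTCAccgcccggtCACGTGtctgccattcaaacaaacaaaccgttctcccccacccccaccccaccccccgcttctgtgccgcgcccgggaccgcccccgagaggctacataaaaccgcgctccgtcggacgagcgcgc
Dusp5: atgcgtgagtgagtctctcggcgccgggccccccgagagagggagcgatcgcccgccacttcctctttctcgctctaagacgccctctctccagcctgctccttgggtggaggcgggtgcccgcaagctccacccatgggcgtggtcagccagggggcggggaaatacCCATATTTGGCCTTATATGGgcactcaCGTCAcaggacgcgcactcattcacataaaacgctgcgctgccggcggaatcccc
Dusp8: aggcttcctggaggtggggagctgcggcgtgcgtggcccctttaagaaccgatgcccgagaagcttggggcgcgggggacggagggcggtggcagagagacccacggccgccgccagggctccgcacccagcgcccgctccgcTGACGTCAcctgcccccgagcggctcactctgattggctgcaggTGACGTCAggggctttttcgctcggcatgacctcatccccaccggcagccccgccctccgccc
Start windows were listed for 8 of the 10 genes, and Dusp4 and Spry4 had none. The full cAMP response element TGACGTCA was found in 2 of these 8 windows, once in Dusp1 (143 bases before the start) and at 2 places in Dusp8 (107 and 63 bases before it), against 1.55% of all 32851 windows of the same length. Its core TGACG, which each full element contains on both strands, was found in Dusp1, Dusp5 and Dusp8, against 17.8% of all windows. The CArG box bound by serum response factor was found at 2 adjoining places in Dusp5 (82 and 72 bases before the start) and in 1.47% of all windows. The E-box CACGTG was found in Dusp1 and in 6.02% of all windows. None of the 8 windows held the AP-1 motif TGANTCA (6.75% of all windows), the ETS motif CCGGAAGT (2.88%) or the D-box TTATGTAA (0.819%). The motifs were chosen with the expression values known, and a match says only that these letters are there.

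Sprouty proteins restrain RAS and ERK downstream of receptor tyrosine kinases, and in IR edit hearts Spry1 and Spry4 rose and Spry2 fell against Sham. Spry1 lies at chr3:37639947-37644598, plus strand. Its level was 22.7, 29.5, 20.9 and 32.7 CPM in IR edit hearts, 21.5, 18.6 and 18.8 in IR virus hearts, 19.01, 20.5 and 15.99 in IR hearts and 15.7, 16.02 and 13.8 in Sham hearts. Its antisense gene Gm42922 had 1 to 9 reads per heart. All IR edit hearts lay above all Sham and IR hearts, IR edit replicate 3 lay below IR virus replicate 1, and IR virus hearts lay above all Sham hearts. Spry1 rose by 0.80 ± 0.14 on the log2 scale against Sham (edgeR adjusted p = 0.00512), the smallest adjusted p of the 10 genes in that comparison, and kept the call whichever 1 library was left out. It did not pass against IR (0.52 ± 0.14, adjusted p = 0.0870) or IR virus (0.43 ± 0.14, adjusted p = 0.147). Against Sham its log2 fold change was 0.37 ± 0.15 in IR virus (adjusted p = 0.269) and 0.29 ± 0.15 in IR (adjusted p = 0.660). In order of mean level the groups were IR edit, IR virus, IR and Sham, and each neighbouring pair overlapped. Without IR edit replicate 3 it passed against IR virus (adjusted p = 0.0410) and, as without replicate 1, against IR (0.0197 to 0.0490), and DESeq2 also called it against IR (adjusted p = 0.0231). Without IR edit replicates 2 and 4, which had the highest levels, the log2 fold change was 0.52 against Sham (adjusted p = 0.0525), 0.24 against IR and 0.15 against IR virus.

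Spry4 lies at chr18:38586247-38601415, minus strand. Its level was 18.99, 19.9, 17.1 and 21.97 CPM in IR edit hearts, 14.4, 16.1 and 13.1 in IR virus hearts, 14.2, 12.9 and 15.4 in IR hearts and 10.6, 13.9 and 13.4 in Sham hearts. All 4 IR edit hearts lay above all 9 other hearts, and IR virus, IR and Sham hearts overlapped. It rose by 0.63 ± 0.12 on the log2 scale against Sham (edgeR adjusted p = 0.00596), a call kept whichever 1 library was left out. Its log2 fold change was 0.46 ± 0.12 against IR (adjusted p = 0.0595) and 0.42 ± 0.11 against IR virus (adjusted p = 0.0757), neither of which passed. Both passed with DESeq2 (adjusted p = 0.0146 and 0.0253) and without IR edit replicate 3 or Sham replicate 1 (adjusted p from 0.0263 to 0.0305 and from 0.0402 to 0.0404). Without IR edit replicates 2 and 4 the log2 fold change against Sham was 0.52 (adjusted p = 0.0868).

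Spry2 lies at chr14:105891947-105896819, minus strand. Its level was 13.43, 13.44, 15.63 and 11.89 CPM in IR edit hearts, 18.07, 15.62 and 17.30 in IR virus hearts, 17.41, 18.12 and 15.65 in IR hearts and 17.52, 16.84 and 17.22 in Sham hearts. IR edit hearts were below all Sham and IR hearts, and replicate 3, the highest of them, lay just above IR virus replicate 2. Spry2 fell by 0.34 ± 0.095 on the log2 scale against Sham (edgeR adjusted p = 0.0400). Its log2 fold change was -0.33 ± 0.095 against IR (adjusted p = 0.112) and -0.32 ± 0.095 against IR virus (adjusted p = 0.102), and neither passed except without IR edit replicate 3 (adjusted p = 0.0294 and 0.0335). The call against Sham was lost without IR edit replicate 1, 2 or 4, IR virus replicate 3, IR replicate 1 or 2, or any 1 Sham heart (adjusted p from 0.0524 to 0.124) and in edgeR on those 2 groups alone (adjusted p = 0.107). With only IR edit replicates 1 and 3 the log2 fold change was -0.25 (adjusted p = 0.406). The replicate number as a block, which takes IR edit replicate 4 out of the comparison, also lost the call against Sham (edgeR adjusted p = 0.129).

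The read counts of Spry1 and Spry2 within a heart stood at a ratio of 1.69, 2.20, 1.33 and 2.75 in IR edit hearts, 1.19, 1.19 and 1.09 in IR virus hearts, 1.09, 1.13 and 1.02 in IR hearts and 0.894, 0.951 and 0.799 in Sham hearts. IR edit hearts all lay above the 6 other injured hearts, and those above the 3 Sham hearts. The ratio of Spry4 to Spry2 counts was 1.41, 1.48, 1.10 and 1.85 in IR edit hearts, 0.797, 1.03 and 0.759 in IR virus hearts, 0.813, 0.711 and 0.983 in IR hearts and 0.603, 0.826 and 0.777 in Sham hearts. Here too every IR edit heart lay above the 9 others, and IR virus, IR and Sham hearts overlapped. These pairs were likewise chosen after the values were seen and carry no test.

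**Figure D2:**
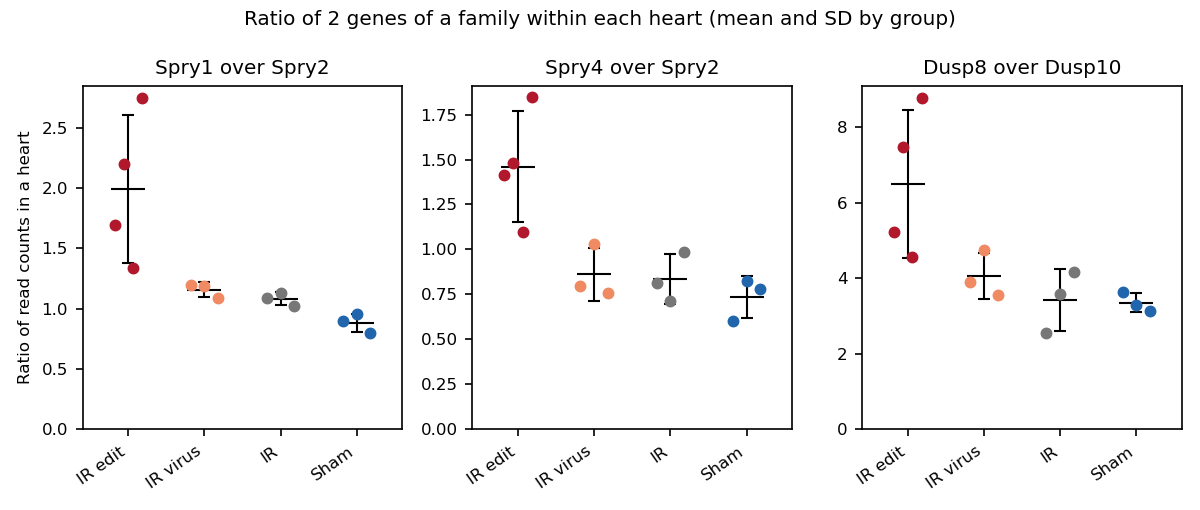
Ratio of the read counts of 2 genes of a family in each heart, by group. Points are hearts, lines group means and bars SDs. Spry1 over Spry2 ran from 1.33 to 2.75 in IR edit hearts and from 0.799 to 1.19 in the other hearts.

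Spred1 encodes a membrane-bound inhibitor that brings the RAS inhibitor neurofibromin to RAS. It lies at chr2:117121374-117182279, plus strand. Its level was 53.2, 61.3, 59.1 and 60.8 CPM in IR edit hearts, 52.6, 51.7 and 57.4 in IR virus hearts, 54.6, 58.5 and 53.2 in IR hearts and 40.8, 47.1 and 56.95 in Sham hearts. IR edit replicates 2, 3 and 4 lay above all 9 other hearts, replicate 1 lay inside the range of each other group, and Sham hearts spread the most. The log2 fold change was 0.28 ± 0.097 against Sham (edgeR adjusted p = 0.0885), 0.12 ± 0.096 against IR virus (adjusted p = 0.591) and 0.080 ± 0.096 against IR (adjusted p = 0.762). It passed against Sham without Sham replicate 3 (adjusted p = 0.0221).

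**Figure D3:**
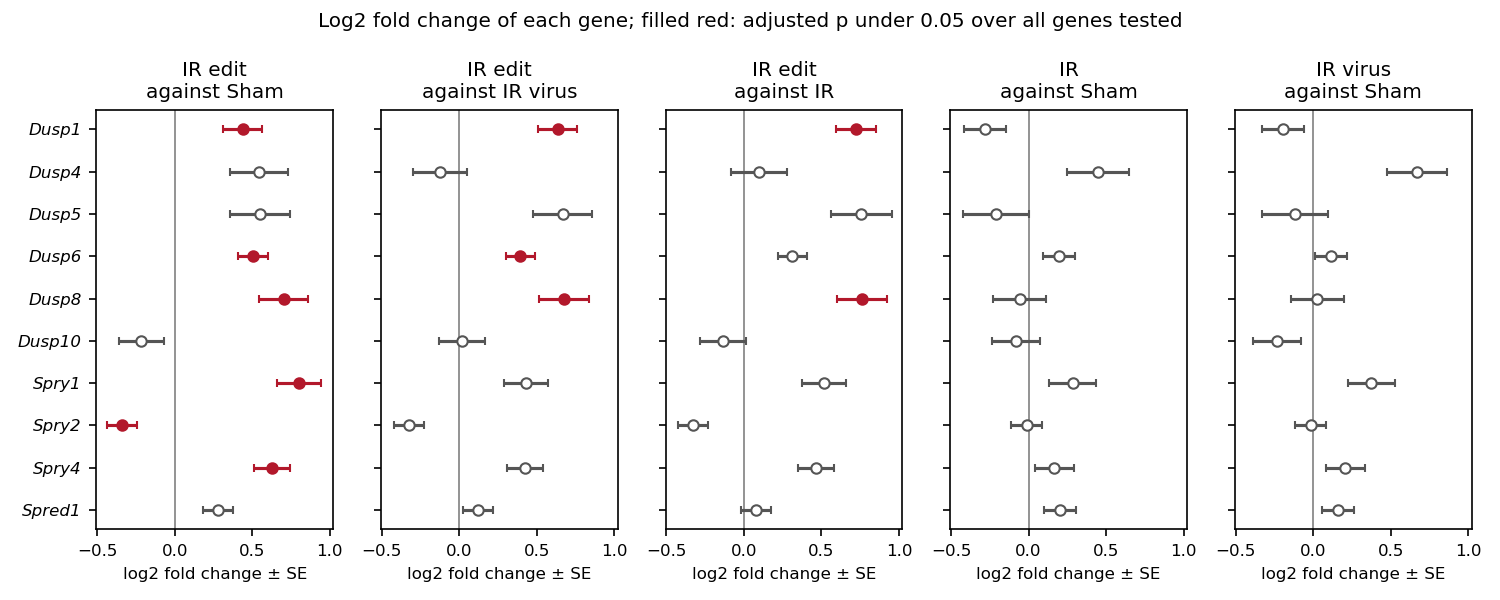
Log2 fold change (horizontal axis) and SE of each gene in 5 comparisons, with genes down the page. Filled red points passed at an adjusted p under 0.05: 6 against Sham, 3 against IR virus and 2 against IR for IR edit hearts, and 0 in both comparisons of IR and IR virus with Sham.

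Without editing, 0 of the 10 genes passed in edgeR's test in IR against Sham (0.0127% of all genes called), in IR virus against Sham (0.0127%) or in IR virus against IR (0%). At an unadjusted p under 0.05 there were 1 (Dusp4), 2 (Dusp4 and Spry1) and 0, against 8.33%, 15.4% and 3.84% of all genes. DESeq2 also called 0 of the 10 in each. The medians of the 10 log2 fold changes were 0.077, 0.070 and 0.062, and those of all genes were 0.00098, 0.010 and 0.00063. In IR against Sham, Dusp1 stood at -0.28 ± 0.14, Dusp6 at 0.20 ± 0.10 and Spred1 at 0.20 ± 0.10. Dusp1 had the same sign in IR virus, at -0.19 ± 0.14, and Spry4 stood at 0.21 ± 0.12 there. IR and IR virus share the Sham hearts in these comparisons.

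Between IR edit and Sham, 5 of the 10 genes had every IR edit heart above every Sham heart and 1 had every one below, against 8.22% and 8.18% of all genes. Between IR edit and IR virus the numbers were 5 and 0, against 6.83% and 7.07%, and between IR edit and IR they were 6 and 1, against 5.97% and 6.85%. In IR against Sham 1 gene (Dusp6) lay wholly higher, against 7.94%, and in IR virus against Sham 2 (Dusp4 and Spry1), against 11%. The share of all genes with every IR edit heart beyond all other hearts was not counted. The 10 genes summed to 221, 237, 222 and 262 CPM in IR edit hearts, 194, 178 and 184 in IR virus hearts, 183, 186 and 182 in IR hearts and 175, 180 and 174 in Sham hearts.

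Levels of different genes were set side by side only per kilobase of annotated exon (GENCODE M21). On that scale Dusp1 was the highest of the 10 genes in IR edit (13.2 CPM per kb) and in Sham (9.74). In IR edit it was followed by Spry1 (9.10), Spred1 (8.64), Dusp8 (8.02), Dusp6 (6.81) and Spry2 (6.52). In Sham the order was Spry2 (8.24), Spred1 (7.12), Spry1 (5.21), Dusp8 (4.93) and Dusp6 (4.79). Dusp4 was the lowest in both, at 0.664 CPM per kb in IR edit and 0.455 in Sham.

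Other inhibitors of RAS and ERK signalling had 22 tested members, of which 3 rose and 0 fell in IR edit against Sham (median log2 fold change 0.17). For this list and those below, all genes tested had 4.61% higher and 3.4% lower against Sham (median -0.0015). Against IR virus all genes had 0.962% higher and 1.06% lower (median -0.0077). Errfi1, an inhibitor of the EGF receptor that its own signal induces, had 36.1 ± 5.26 CPM in IR edit and 16.4 ± 0.616 CPM in Sham (SD), a log2 fold change of 1.14 ± 0.12 (edgeR adjusted p = 0.000116). It stood at 40.1, 29.6, 34.00 and 40.7 CPM in IR edit hearts, 14.5, 13.3 and 14.4 in IR virus hearts, 15.2, 14.1 and 18.8 in IR hearts and 15.7, 16.6 and 16.9 in Sham hearts. Every IR edit heart was above all 9 others. It was also the 1 member of this list that passed against IR virus, at 1.36 ± 0.12 (adjusted p = 2.35e-05), where the list's median was 0.051. Nf1, which encodes the neurofibromin that Spred1 recruits, rose by 0.44 ± 0.10 against Sham (adjusted p = 0.0202) and Pea15a, a small protein that binds ERK, by 0.38 ± 0.096 (adjusted p = 0.0284). The count of 3 against Sham was 1 without IR edit replicate 2 or 4, without both, without Sham replicate 2 or in the 2 groups alone, 5 with DESeq2 and 7 without IR edit replicate 3.

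The other DUSP genes, 11 of them tested, had 2 members higher and 2 lower in IR edit against Sham (median -0.015) and 0 called against IR virus by edgeR (median 0.061, 4 at an unadjusted p under 0.05). Dusp27, an atypical family member of muscle, rose by 0.55 ± 0.12 (adjusted p = 0.0126) and Dusp3 by 0.34 ± 0.096 (adjusted p = 0.0414). Dusp7, a close relative of Dusp6 that also acts on ERK, fell by 0.51 ± 0.12 (adjusted p = 0.0228), with 24.5 ± 2.96 CPM in IR edit and 34.8 ± 5.90 CPM in Sham (SD). Dusp18 had the smallest p of the list against IR virus, at -0.47 ± 0.16 (adjusted p = 0.154), and did not pass; DESeq2 also called 0 there. The 4 calls against Sham were 0 without Sham replicate 3, without both IR edit replicates 2 and 4 or in the 2 groups alone. They were 1 without IR edit replicate 2 or 4 or Sham replicate 1, and 2 without IR virus replicate 1 or 3 or IR replicate 1 or 2.

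None of the 41 tested genes of the RAS and MAP kinase cascade passed in edgeR in IR edit against Sham or IR virus, with medians of 0.049 and 0.034 and with 5 and 6 genes at an unadjusted p under 0.05. DESeq2 called 2 in each, and edgeR called 3 against Sham and 1 against IR virus without IR edit replicate 3 and 1 against IR virus without IR edit replicate 1. Map2k6, a kinase that activates p38, had the smallest p against Sham (-0.56 ± 0.18, adjusted p = 0.0746), and Gab1, an adaptor of receptor signalling, against IR virus (-0.29 ± 0.075, adjusted p = 0.0651). Growth factor ligands had 4 of 31 members higher and 1 lower against Sham (median 0.084). Pdgfc, a ligand of the PDGF receptors, rose by 0.96 ± 0.19 (adjusted p = 0.00772) and Hbegf, a ligand of the EGF receptor, by 0.79 ± 0.19 (adjusted p = 0.0198). Fgf2, a fibroblast growth factor, fell by 0.44 ± 0.11 (adjusted p = 0.0265). Against IR virus 2 ligands rose (median -0.0034): Vegfa, the growth factor of vessels, by 0.33 ± 0.074 (adjusted p = 0.0307) and Pdgfc by 0.74 ± 0.18, at an adjusted p of 0.04999 against the threshold of 0.05. The 5 ligands called against Sham were 0 without both IR edit replicates 2 and 4 or in the 2 groups alone, 1 without IR edit replicate 2 or 4 or Sham replicate 3, 3 without Sham replicate 1, 12 without IR edit replicate 3 and 13 without the filter on low counts. The 2 against IR virus were 0 without IR edit replicate 2 or 4, without both or without any 1 IR virus heart, 1 without any 1 IR heart, without Sham replicate 2 or 3 or in the 2 groups alone, and 6 without the filter.

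Of 25 receptor tyrosine kinases 4 rose against Sham (median 0.14), among them Flt4, the lymphatic VEGF receptor (0.44 ± 0.096, adjusted p = 0.0143), Met, the receptor of hepatocyte growth factor (1.27 ± 0.32, adjusted p = 0.0268), and Igf1r, the IGF receptor (0.26 ± 0.068, adjusted p = 0.0317). Against IR virus 0 receptors passed in edgeR (median 0.014, 5 at an unadjusted p under 0.05), 2 passed in DESeq2 and 1 in edgeR without IR edit replicate 1. Pdgfrb had the smallest p there (-0.42 ± 0.11, adjusted p = 0.0757). The 4 receptors called against Sham were 0 without both IR edit replicates 2 and 4 or in the 2 groups alone, 1 without IR edit replicate 2 or 4 or Sham replicate 2 or 3, and 2 without IR replicate 2 or Sham replicate 1.

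Transcripts that ERK and other kinases induce, 31 tested genes, had 20 higher and 1 lower in IR edit against Sham (median 0.78) and 9 higher and 1 lower against IR virus (median 0.50). Nr4a1, a nuclear receptor of the early response, was at 31.2, 24.3, 38.4 and 53.04 CPM in IR edit hearts, 4.10, 2.98 and 3.07 in IR virus hearts, 3.03, 4.35 and 6.11 in IR hearts and 3.06, 3.19 and 2.89 in Sham hearts. IR edit hearts were above all others, without overlap, and Nr4a1 rose by 3.59 ± 0.27 against Sham (edgeR adjusted p = 9.11e-06) and by 3.44 ± 0.26 against IR virus (adjusted p = 1.04e-05). Fosl2, a subunit of AP-1, had 64.5 ± 17.1 CPM in IR edit and 21.7 ± 1.09 CPM in Sham (SD) and rose by 1.57 ± 0.15 against Sham (edgeR adjusted p = 7.56e-05) and by 1.51 ± 0.15 against IR virus (adjusted p = 0.000101). Etv5, an ETS factor that follows ERK activity in many tissues, stood at 15.4, 19.8, 13.6 and 20.3 CPM in IR edit hearts, 15.05, 15.9 and 12.1 in IR virus hearts, 12.2, 12.8 and 10.4 in IR hearts and 8.84, 7.84 and 7.66 in Sham hearts. It rose by 1.09 ± 0.15 against Sham (adjusted p = 0.00104), and its IR edit and IR virus hearts overlapped. Klf4 rose by 0.95 ± 0.11 against IR virus (adjusted p = 0.000231). In the fit without IR edit replicates 2 and 4, 10 and 7 genes of this list were called against Sham and IR virus. Against Sham 13 were called without IR edit replicate 2 alone and 9 in the 2 groups alone.

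**Figure D4:**
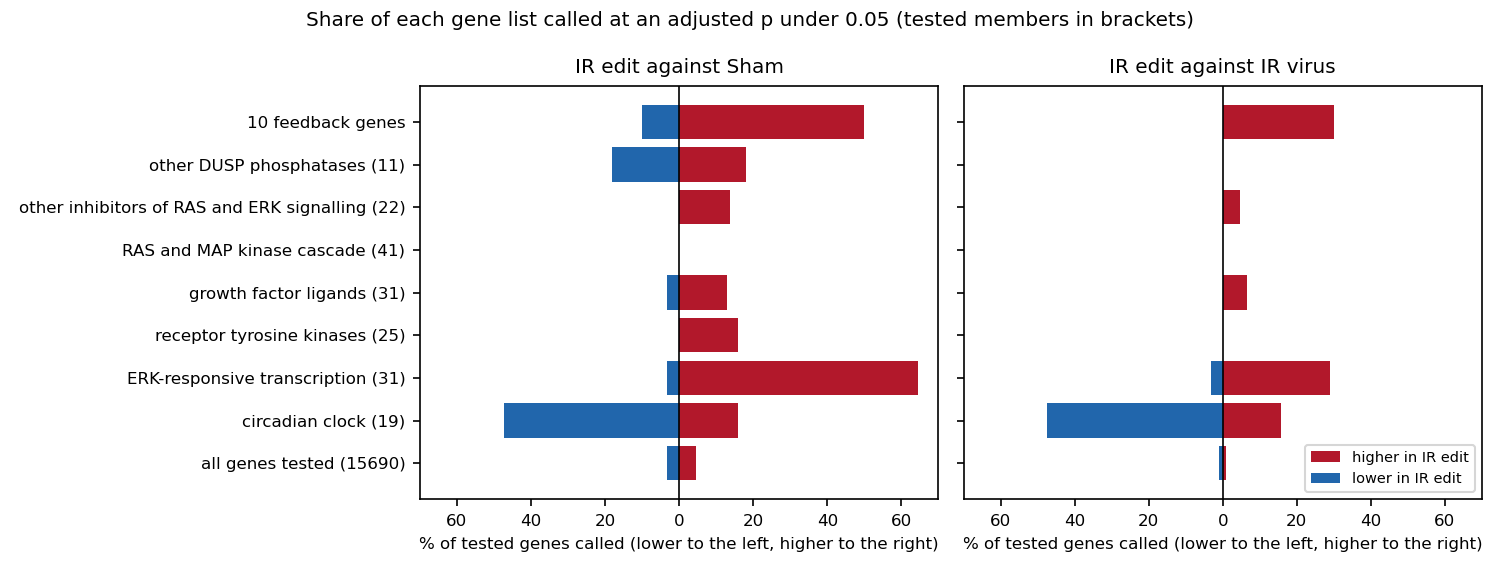
Share of the tested genes of each list called at an adjusted p under 0.05 in edgeR, higher in IR edit to the right and lower to the left, in 2 comparisons. The 10 feedback genes had 5 higher and 1 lower against Sham and 3 higher against IR virus, the RAS and MAP kinase cascade 0 in both.

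Other measures moved with the same hearts, and their part in these results was not tested. Of 19 circadian clock genes 3 were higher and 9 lower in IR edit both against Sham (median -0.30) and against IR virus (median -0.79). Dbp, a transcription factor driven by the clock, was at 7.09, 5.02, 7.66 and 4.01 CPM in IR edit hearts, 46.1, 44.9 and 34.4 in IR virus hearts, 38.1, 35.7 and 30.03 in IR hearts and 28.7, 35.1 and 25.3 in Sham hearts, with every IR edit heart below all others, and fell by 2.33 ± 0.18 against Sham (edgeR adjusted p = 1.1e-05). It fell by 2.82 ± 0.18 against IR virus (adjusted p = 2.12e-06). Per3, a clock repressor, was also lower, with a log2 fold change of -1.81 ± 0.20 against Sham (edgeR adjusted p = 0.000132) and -1.89 ± 0.20 against IR virus (adjusted p = 0.000116), Nr1d2 of -1.03 ± 0.12 against Sham (adjusted p = 0.000211) and Bhlhe41 of -0.94 ± 0.11 against IR virus (adjusted p = 0.000231). The hour of harvest is not given, so an hour that differed between groups and the editing system cannot be told apart. Reads from the mitochondrial genome took 31.9%, 32.2%, 37.4% and 29.7% of the counts in IR edit hearts, 30.7%, 34.7% and 34.3% in IR virus hearts, 34.5%, 34.4% and 35.6% in IR hearts and 35.6%, 34.9% and 38.5% in Sham hearts.

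Smooth muscle and pericyte markers, 10 genes, summed to 1179 to 1503 CPM in IR edit hearts, 1578 to 1676 in IR virus hearts, 1644 to 1802 in IR hearts and 1659 to 1850 in Sham hearts, so that IR edit hearts were below all others (2 of 10 genes were called lower against Sham). IR edit replicates 2 and 4, at 1242 and 1179 CPM, were the lowest of all 13 hearts. Fibroblast markers, 10 genes, summed to 1259 to 2255 CPM in IR edit, 1504 to 2088 in IR virus, 1385 to 2021 in IR and 1153 to 1193 in Sham, with 4 of 10 called higher in IR edit against Sham and 0 against IR virus. Within IR edit the highest were replicates 2 and 4, at 1857 and 2255 CPM, against 1479 and 1259 in replicates 1 and 3. Endothelial markers, 10 genes, summed to 782 to 947 CPM in IR edit, 825 to 936 in IR virus, 842 to 935 in IR and 778 to 896 in Sham. Macrophage and monocyte markers, 10 genes, summed to 224 to 316 CPM in IR edit, 270.3 to 285 in IR virus, 265 to 279.96 in IR and 199 to 306 in Sham. Adipocyte markers, 8 genes, summed to 331 to 403 CPM in IR edit, 391 to 456 in IR virus, 451 to 493 in IR and 431 to 509 in Sham. The skeletal muscle list, 10 genes, summed to 161 to 1058 CPM in IR edit, 319 to 419 in IR virus, 280.1 to 304 in IR and 46.3 to 125 in Sham. Nearly all of that was Acta1, which stressed heart muscle also expresses, and the other 9 genes were each under 1 CPM in every heart. IR edit replicates 2 and 4 had the highest sums of all 13 hearts on this list too. Lymphocyte, neutrophil, neuron and glia, and mesothelial markers each summed to under 21 CPM in every heart, and red blood cell markers to 153 to 296. Mesothelial markers, 7 genes, were at 5.33 to 8.78 CPM in IR edit hearts, 4.42 to 5.08 in IR virus hearts, 4.46 to 5.72 in IR hearts and 4.003 to 4.65 in Sham hearts. The part of these cells in the levels of the 10 genes was not tested.

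Patterns most like those of single members were ranked among 9296 other named genes of at least 5 CPM, by the root mean square difference of centred log2 CPM over the 13 hearts, where a smaller value is a closer match. Dusp1 was nearest to Nfil3, a transcription factor of the clock's output (0.105), and Irf2bp2 (0.115), where the median gene was at 0.358. Dusp5 was nearest to Jun, a subunit of AP-1 (0.19), and Fam46a (0.194), with the median gene at 0.383. Dusp6 was nearest to Dynll1 (0.0743) and Ptpn21 (0.0821), with the median at 0.257, and Dusp8 to Vwa1 (0.151) and Ppp1r3c (0.152), with the median at 0.408. Spry1 was nearest to Smoc2, a matrix protein (0.0962), and the integrin subunit Itgb5 (0.0973), with the median at 0.364. Spry4 was nearest to Abcb4 (0.104) and Dexi (0.108), with the median at 0.308, and Spry2 to Lclat1 (0.0718) and Hnrnpl (0.0842), with the median at 0.226. Dusp4 was nearest to Atp6v0e2 (0.119) and Gsn (0.126), Dusp10 to Kcnn2 (0.108) and Abr (0.11), and Spred1 to Macf1 (0.0636) and Cdc14b (0.0665). These are descriptions over hearts that share groups and libraries.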

How the data were processed

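Whole-heart mRNA libraries were sequenced and the authors deposited raw counts of reads by gene symbol for each heart. Per the submitters' processing notes, FastQC 0.11.8, Trimmomatic 0.39, HISAT2 2.1.0, featureCounts 1.6.2 and the mm10 build were used. The sources used here do not name the annotation or the strand setting. Counts were tested with edgeR 4.0.16 in R 4.3.3 (TMM scaling, filterByExpr, quasi-likelihood F-test), with 1 mean per group over all 13 libraries and Benjamini-Hochberg adjustment over 15690 genes at a threshold of 0.05. SE is the size of the log2 fold change divided by the root of F. Alternatives were DESeq2 1.42.0, relative log expression scaling in edgeR, no filter, a replicate block, fits of 2 groups and leaving out each library. Same-numbered hearts were not paired by the labels. The method was also run on simulated data, with planted changes larger than those of the members and the same spread in every group. That run does not show how the method does at changes of the members' size. Depth limits low genes most, Dusp4 above all. Members and lists were chosen with earlier results of these data known. Named list genes were, in IR edit against Sham and against IR virus, the 3 of smallest p among those called or, where none was called, the 1 of smallest p. Nearest patterns were the 2 closest genes of at least 5 CPM, on log2 CPM with a prior count of 2.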

Additional observations from a re-analysis of the deposited data

How the results depend on the processing

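Scaling by relative log expression in edgeR, in place of TMM, kept all calls of the 10 genes. The number of the 10 genes called in IR edit against Sham, IR virus and IR was 6, 3 and 2. Without the filter on low counts it was 7, 6 and 5 (Dusp5 added in all 3, Spry1 and Spry4 in the last 2), with DESeq2 6, 4 and 5, and in edgeR on 2 groups alone 3, 2 and 1. Without IR edit replicates 2 and 4, an alternative chosen after seeing the data, it was 0, 0 and 1. Over all genes, the calls against Sham, IR virus and IR were 1257, 317 and 223. Without the filter they were 2205, 1018 and 1021, with DESeq2 1607, 495 and 427, in 2 groups alone 246, 220 and 168, and without IR edit replicates 2 and 4 158, 90 and 78. In IR against Sham 2 genes were called, against 598 without the filter, 48 with DESeq2 and 115 in 2 groups alone. In IR virus against Sham 2 were called, against 863, 191 and 203. In IR virus against IR 0 were called, against 37 without the filter. With 1 library left out, the 10 genes had 4 to 7 calls against Sham, 0 to 6 against IR virus and 0 to 6 against IR, and all genes 478 to 2351, 96 to 477 and 59 to 489. IR against Sham had 0 to 22 calls over all genes, IR virus against Sham 0 to 130 and IR virus against IR 0 to 1.

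The labels do not pair hearts by replicate number. Between groups, 4 of 18 same-numbered pairs had a correlation of deviations over 0.1 (range -0.130 to 0.221), and pairs of unlike number ran from -0.194 to 0.211. Whether the numbers mark a pairing or a batch was not tested. With the replicate number as a block, 4, 1 and 1 of the 10 genes were called in IR edit against Sham, IR virus and IR, and 590, 159 and 122 of all genes. The calls lost were those of Dusp8 in each comparison, Spry2 against Sham and Dusp6 against IR virus. Only IR edit has a replicate 4, so the block fits that heart on its own and it adds nothing to these comparisons. The fit without IR edit replicate 4 also called 4, 1 and 1 of the 10 genes. Of the lists against Sham, the block called 1 other DUSP gene, 2 ligands and 2 receptors. For Sham as the other group, the block gave 5 genes in IR hearts and 174 in IR virus hearts.

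Directions that turned belonged to values that had not passed, and are given with their range over the fits that leave out 1 library. Dusp10 in IR edit against IR virus ran from -0.10 (without IR virus replicate 2) to 0.13, and was -0.074 without IR edit replicate 3. Against IR it was 0.0085 without IR edit replicates 2 and 4. Dusp4 in IR edit against IR ran from -0.013 (without IR replicate 3) to 0.17. In IR virus against Sham, Dusp8 ran from -0.073 (without Sham replicate 3) to 0.14 and was -0.067 without IR virus replicate 1, Spry2 ran from -0.062 to 0.038 (without IR virus replicate 2) and Dusp5 from -0.22 to 0.047 (without Sham replicate 2). In IR against Sham, Dusp8 ran from -0.25 to 0.075 (without IR replicate 1) and was 0.053 without Sham replicate 2, Spry2 ran from -0.064 to 0.046 (without IR replicate 3) and Dusp10 from -0.16 to 0.044 (without Sham replicate 2). The cause was not tested.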

Other observations

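Among the 10 genes, the closest patterns over the 13 hearts, by root mean square difference of centred log2 CPM, were those of Dusp6 and Spry1 (0.162), Dusp6 and Spry4 (0.169), Dusp6 and Spred1 (0.175) and Dusp10 and Spry2 (0.188). The SD of log2 CPM over the hearts was 0.227 for Dusp6, 0.354 for Spry1, 0.289 for Spry4, 0.162 for Spred1, 0.197 for Dusp10 and 0.190 for Spry2. A distance near a gene's own SD, as for Spred1, Dusp10 and Spry2, need not mean a shared pattern. Spry1 and Spry4 differed by 0.206 and Dusp1 and Dusp5 by 0.218. These are descriptions over hearts that share groups and libraries.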
